A study of Arabidopsis thaliana with 8 samples.

Results

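The transcript response of wild-type Arabidopsis seedlings to NaCl stress was described from 4 of the 8 arrays of the series. Whole seedlings 14 days old, grown hydroponically in MS medium, were taken either without NaCl (wild-type control, 2 arrays) or after 24 h in 150 mM NaCl (wild-type NaCl, 2 arrays). The labels and the methods give this concentration, whereas a legend of the study gives a lower one for the array seedlings. The other 4 arrays hold seedlings of the same age from a line overexpressing the rice serine hydroxymethyltransferase OsSHMT3 (OE), with and without NaCl, and were used only for the spread in an alternative fit and for 1 comparison at the end. The methods describe the overexpressing lines as homozygous and name both OE3 and OE5 for the arrays. The transgene was driven by the pENTCUP2 promoter, and the transgenics were made from Col-0 seeds. The arrays gave 1 log2 value per probe set (the short oligonucleotides that together read a transcript), so that a difference of 1 is a doubling of the signal. Of 22810 probe sets, 64 controls were set aside and 22746 compared, of which 13513 point to 1 gene, 503 to several and 8730 to none in the annotation used.

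High external NaCl lowers the water potential around the root and brings sodium into the shoot, so that a seedling meets osmotic stress first and ion toxicity later. Much of the known transcript response runs through abscisic acid and through transcription factors of the ERF, bZIP, WRKY and NAC families. Its best known targets are late embryogenesis abundant (LEA) proteins, small hydrophilic proteins that protect other proteins and membranes when cells lose water, together with enzymes of proline metabolism, of glutathione and ascorbate recycling and of the conjugation of small molecules to sugars. Transcripts for photosynthesis are commonly reduced in stressed leaves.

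After NaCl, 5899 of the 22746 probe sets changed (25.9%), 2783 higher (12.2%) and 3116 lower (13.7%), at an adjusted p under 0.05 in limma fitted to the 4 wild-type arrays. The words called, rose and fell are used of genes past this limit. Rises outnumbered falls at the higher fold limits, although the 3 largest changes among probe sets naming 1 gene were falls. With a log2 fold change of at least 1 there were 844 calls (3.71%), 549 higher (2.41%) and 295 lower (1.3%), and with at least 2 there were 103 and 45. The NaCl arrays did not overlap the control arrays in 14757 probe sets (64.9%), 26.8% higher and 38.1% lower, so that lack of overlap alone says little here, and it held for each of the 5899 calls. In a fit to all 8 arrays, whose spread takes in the noisier OE arrays, 1324 probe sets were called (5.82%), 742 higher (3.26%) and 582 lower (2.56%), and each was also called in the 4-array fit. Leaving out each array in turn kept 1994 calls in every fit, 1108 higher and 886 lower.

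**Figure D1:**
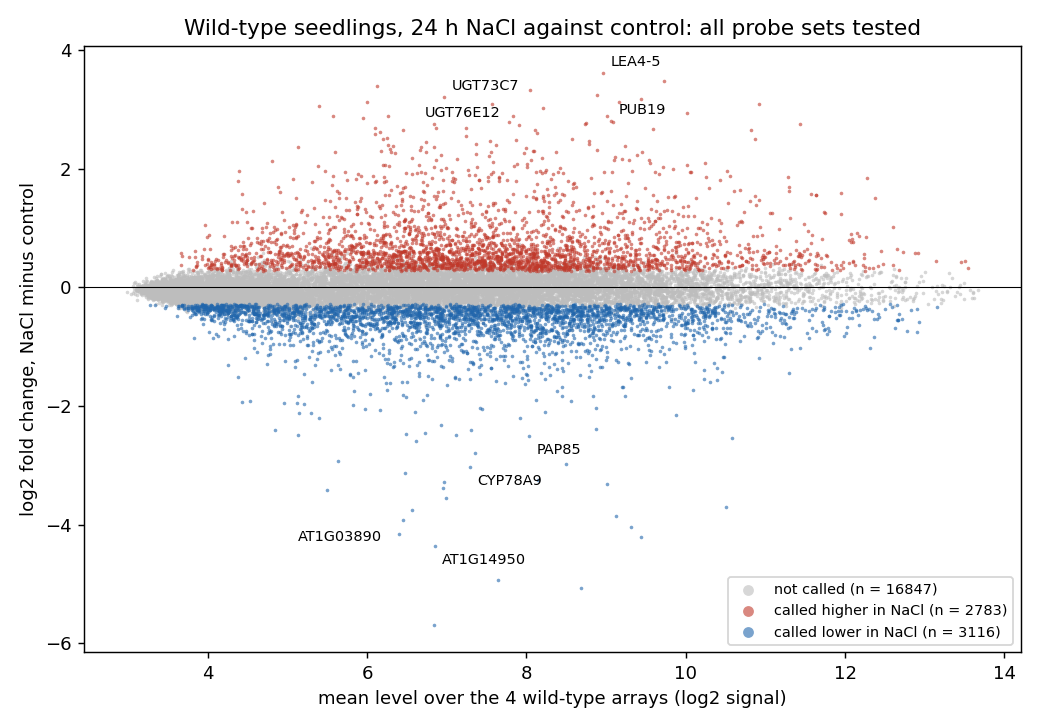
Log2 fold change (NaCl minus control, vertical axis) against the mean log2 signal over the 4 wild-type arrays (horizontal axis), 1 point per probe set, with the called ones in red (2783 higher) and blue (3116 lower). Of the called probe sets, 103 rises and 45 falls pass 2 in size.

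The replicate arrays were close to each other. Differences between the control arrays had an SD of 0.21 over all probe sets, and those between the NaCl arrays 0.12, against 0.43 and 0.55 in OE. Pearson's r over probe sets was 0.995 between the control arrays, 0.999 between the NaCl arrays, and 0.979 to 0.980 between a control and an NaCl array. This describes features of the same arrays, which are not independent samples. Array medians lay between 6.27 and 6.33. Median log2 fold change over all probe sets was −0.05, with an SD of 0.44. Calls were fewer among dim probe sets, with 5.12% at a mean signal below 4.33, 26.2% from there to 6.33, 34.7% up to 8.08 and 37.7% above. The sources do not say that the arrays of a group were grown as separate cultures. The p-values therefore rest on the spread between these arrays only, which may be technical. With an NaCl array left out they rest on the spread of the control arrays alone. Where a call below is lost without an array, the array named is the one whose omission gave the highest adjusted p.

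The label of whole seedlings was checked against marker lists, of which few members are named here. For green tissue, the 8 measured nuclear genes of the photosynthetic light reactions averaged 12.14 and 12.17 on the control arrays and 11.84 on each NaCl array. For root, PYK10, the beta-glucosidase of root and hypocotyl endoplasmic reticulum bodies, read 7.08 and 7.01 in control and 8.40 and 8.33 after NaCl, whereas the root hair expansins EXPA7 and EXPA18 stayed between 3.96 and 4.72 on all 4 arrays. Markers of the shoot meristem (CLV3, 3.60 to 3.90) and of early stomatal precursors (SPCH and MUTE, 3.76 to 4.33) had mean signals below 4.33. FAMA, which acts late in the stomatal lineage, read between 6.13 and 6.49 with overlapping groups. Of these root, meristem and stomatal markers only PYK10 was called. Over all probe sets 25.9% were called, but only 5.12% of those with a mean signal below 4.33, so the lack of other calls says little. The 4 measured seed and embryo markers averaged 9.03 and 9.11 on the control arrays, above the 3 measured root markers at 5.32 on each. The label names no seed tissue, and why these markers read so high in seedlings of this age was not tested. Since whole seedlings were sampled, fewer cells of a type and less RNA per cell cannot be told apart in any of the changes below.

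Among probe sets naming a single gene, the 15 largest rises had log2 fold changes of 2.70 to 3.61, a 6.48- to 12.2-fold increase, with SEs of 0.083 to 0.146 (n = 2 arrays per group). LEA4-5 (AT5G06760, chromosome 5 from 2089445 to 2090430 in TAIR10.1), a LEA protein known to accumulate in vegetative tissue under water deficit, led them. It read 7.18 and 7.14 in control and 10.78 and 10.76 after NaCl, a 12.2-fold rise (adjusted p = 3.52e-06). UGT73C7, an enzyme that attaches sugars to small molecules, read 5.43 and 5.29 in control against 8.67 and 8.49 after NaCl, a rise of 3.22 on the log2 scale (SE 0.10, adjusted p = 5.71e-06). In both genes the arrays of a group lay close to each other, and the control arrays far below either NaCl array. PUB19, a U-box ubiquitin ligase known to restrain abscisic acid and drought responses, went from 7.69 and 7.62 to 10.48 and 10.46, a 7.01-fold rise (adjusted p = 4.6e-06). UGT76E12, a second glycosyltransferase, went from 6.49 and 6.56 to 9.30 and 9.25, a 6.72-fold rise (adjusted p = 5.52e-06).

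The other 11 of the 15 carry a locus name only. AT1G10585 read 4.60 and 4.26 in control against 7.84 and 7.81 after NaCl, a 10.5-fold rise. AT5G15190 went from 7.38 and 7.16 to 10.53 and 10.48 (9.45-fold), and AT1G09500 from 8.02 and 7.69 to 11.04 and 11.02 (9.04-fold). AT2G35730 was at 4.47 and 4.40 in control and at 7.58 and 7.56 after NaCl (8.79-fold). These 4 genes showed the same picture, a wider gap between the control arrays than between the NaCl arrays and no overlap of the groups. AT5G66780, which belongs to the LEA list, had the control arrays farthest apart of the 15, at 5.80 and 6.25, and still lay at 9.14 and 9.09 after NaCl. The remaining rises were AT1G30700, AT2G41190, AT1G07590, AT5G53710, AT1G16850 and AT5G45630, with 6.48- to 8.20-fold increases. The smallest gap between the highest control array and the lowest NaCl array among the 15 was 2.58, in AT1G16850. All 15 calls held in each fit with an array left out (highest adjusted p = 0.000125) and in the 8-array fit (highest adjusted p = 0.00312).

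The 15 largest falls reached from 2.33 to 4.37 in size on the log2 scale, a 5.01- to 20.6-fold decrease. AT1G14950 read 9.11 and 8.96 in control and 4.52 and 4.81 after NaCl (log2 fold change −4.37, SE 0.12, adjusted p = 3.75e-06). AT1G03890, of the seed and embryo list, went from 8.36 and 8.59 to 4.3 and 4.34 (−4.16), and AT1G19900 from 8.41 and 8.41 to 4.59 and 4.39 (−3.92). The groups did not overlap in any of these 3 genes. AT5G45690, at 7.28 and 7.12 in control, read 3.72 and 3.85 after NaCl, below 4.33, where few probe sets were called. CYP78A9, a cytochrome P450 known for promoting the growth of floral organs and fruits, was at 8.81 on both control arrays and fell to 5.79 and 5.77, an 8.19-fold decrease (adjusted p = 3.75e-06). MSRB6, a methionine sulfoxide reductase that repairs oxidized methionine in proteins, fell from 8.26 and 7.92 to 5.78 and 5.74, the smallest gap between the groups among the 15 at 2.13. The others were AT3G58550, AT1G04560, AT2G18370, AT3G04170, AT2G28490, PAP85, AT1G66850, AT1G54870 and AT1G78450. All 15 calls held with each array left out (highest adjusted p = 0.000245) and in the 8-array fit (highest adjusted p = 0.00101).

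**Figure D2:**
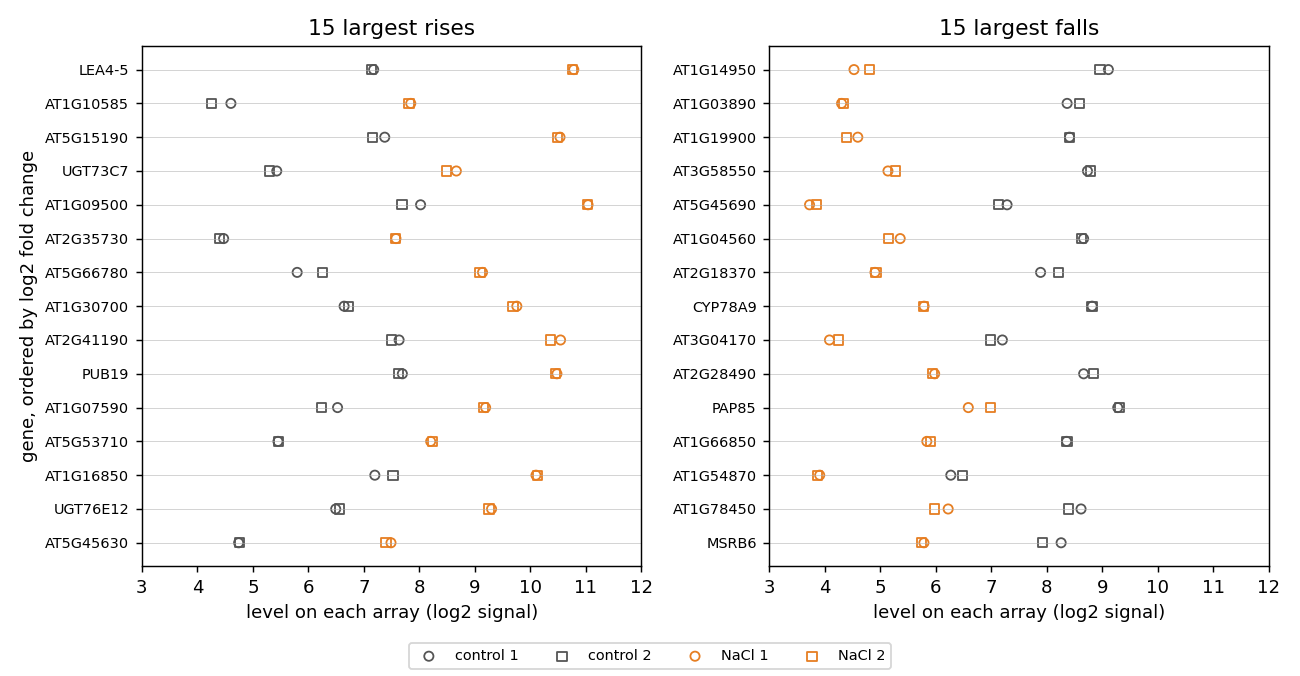
Log2 signal on each of the 4 wild-type arrays (horizontal axis; grey for control, orange for NaCl, circle for array 1 and square for array 2) of the 15 genes with the largest rises (left) and the 15 with the largest falls (right), ordered by log2 fold change. In every gene both arrays of a group lie together and the groups stand at least 2.13 apart.

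Seed and embryo markers moved with the falls. All 4 measured members of that list, of 21 listed, fell (13.7% of all probe sets fell), and their mean level went from 9.03 and 9.11 on the control arrays to 6.70 and 6.82 on the NaCl arrays. PAP85, listed as a seed storage gene, read 9.28 and 9.30 in control and 6.58 and 6.99 after NaCl (−2.51, adjusted p = 3.72e-05). AT3G01570 fell from 9.38 and 9.36 to 7.52 and 7.54 (−1.84, adjusted p = 1.75e-05). OLEO3, an oleosin that coats the oil bodies of seeds, fell from 9.11 and 9.17 to 8.37 and 8.43 (−0.74, adjusted p = 0.00105). All 4 stood clearly above the dim range in control seedlings. The 1 measured anther marker, AT5G07230, read 4.45 and 4.59 in control and 4.02 and 4.18 after NaCl, and its call was lost without NaCl array 1 (adjusted p = 0.229). What part these tissues had in the falls was not tested.

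LEA genes were the list with the most rises. Of 53 listed genes 37 were measured, of which 18 rose (48.6%, against 12.2% of all probe sets), 7 fell (18.9%, against 13.7%) and 12 were not called, with a median log2 fold change of 0.28 against −0.05 over all probe sets. With each array left out 15 rises and 4 falls held in every fit, and in the 8-array fit 12 rises and 4 falls. After LEA4-5 and AT5G66780, AT2G42560 rose from 5.45 and 5.73 to 7.83 and 7.93 (4.90-fold, adjusted p = 2.47e-05), and M17 from 3.80 and 3.69 to 5.69 and 6.05 (4.37-fold, adjusted p = 6.16e-05). AT3G02480 stood at 9.09 and 9.28 in control and at 11.28 and 11.30 after NaCl (2.1 on the log2 scale), and AT2G35300 (LEA18) at 4.15 and 4.16 against 5.97 and 6.01 (1.84). AT4G15910, the drought-induced DI21, went from 9.07 and 9.04 to 10.19 and 10.16 (1.12). In each of these genes the groups stood farther apart than the replicates within them.

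Among the LEA genes that fell, AT4G21020 went from 5.83 and 6.01 to 4.09 and 3.87 (−1.94), the dehydrin gene AT2G21490 from 7.53 and 7.80 to 5.77 and 5.93 (−1.82), and AT3G15670 from 6.47 and 6.57 to 5.08 and 5.02 (−1.47). AT1G32560 (AtLEA4-1) fell less, from 8.48 and 8.46 to 7.81 and 7.76 (−0.69, adjusted p up to 0.028 without an array). These 4 were the falls that held with every array left out. The other 3 falls of the list, COR15B among them, had log2 fold changes of −0.60 to −0.41. On the same arrays the 4 seed and embryo markers had log2 fold changes of −4.16 to −0.74, and what part seed tissue had in the LEA falls was not tested.

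Among the 4 measured drought and cold regulated genes, all of which also belong to the LEA list, 3 rose and 1 fell (against 12.2% and 13.7% of all probe sets). LTI30, a dehydrin that binds membranes, rose from 10.45 on both control arrays to 12.20 and 12.09 (3.25-fold, adjusted p = 2.89e-05). COR47, another dehydrin, rose from 11.27 and 11.39 to 12.55 and 12.59 (2.36-fold, adjusted p = 0.000127). COR15A, which protects chloroplast membranes during freezing, rose from 10.81 and 10.64 to 11.89 and 11.92 (2.26-fold, adjusted p = 0.000208), while its neighbour and close relative COR15B fell from 10.50 and 10.39 to 9.88 and 9.82 (−0.60, adjusted p = 0.00311). The call of COR15B was lost without NaCl array 2 (adjusted p = 0.0522) and in the 8-array fit (adjusted p = 0.0617). The 2 genes are near copies, so their probe sets may share signal.

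**Figure D3:**
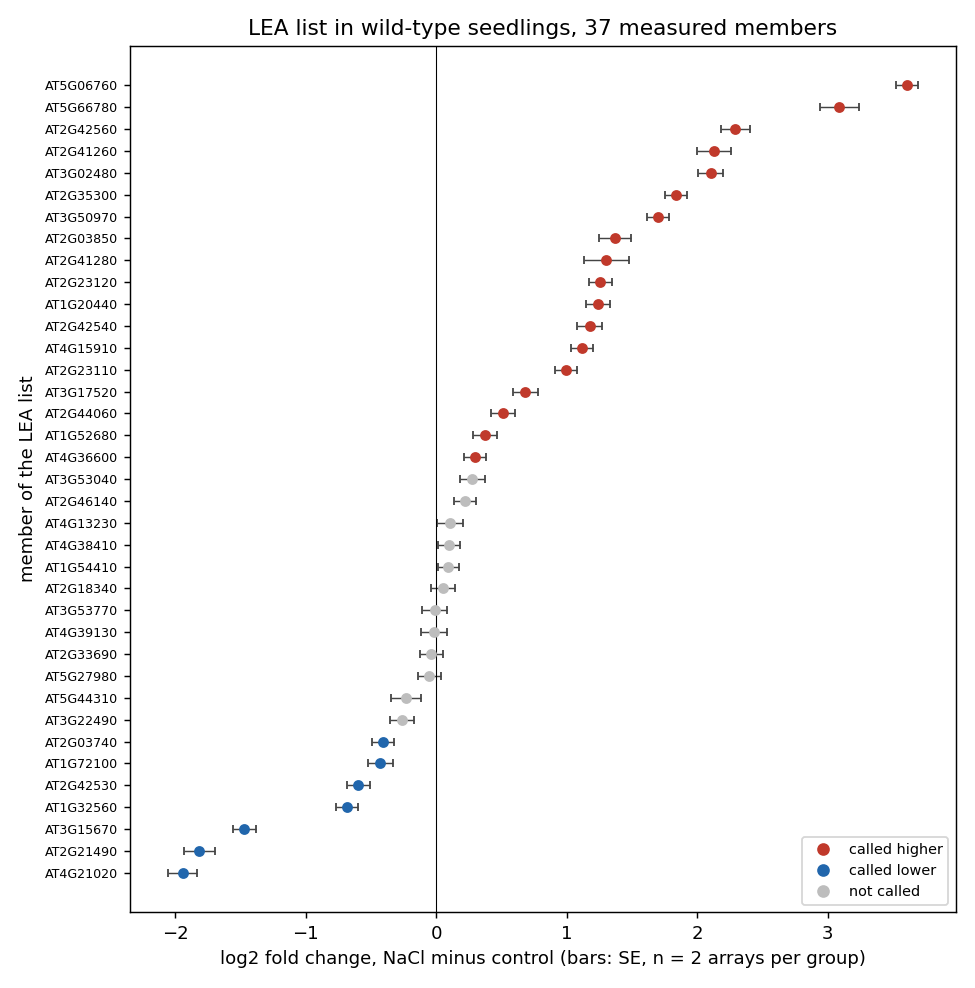
Log2 fold change (NaCl minus control, horizontal axis) with its SE for each of the 37 measured members of the LEA list, named by locus and ordered by change (red called higher, blue called lower, grey not called). The list spans from −1.94 (AT4G21020) to 3.61 (AT5G06760, LEA4-5), with 18 rises, 7 falls and 12 members not called.

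For osmolytes and protection from oxidation the named genes were few. Both measured genes of proline metabolism rose (12.2% of all probe sets rose). AT5G38710, which the study annotates as proline dehydrogenase 2, an enzyme of proline breakdown, went from 7.22 and 7.11 to 8.24 and 8.33 (2.18-fold, adjusted p = 0.0002), and DELTA-OAT, the ornithine aminotransferase, from 9.0 and 8.83 to 9.63 and 9.55 (1.6-fold, adjusted p = 0.00269). The genes of proline synthesis from glutamate were not among those named alone by a probe set. Of 5 reactive oxygen enzymes 3 rose and 1 fell (against 12.2% and 13.7% of all probe sets), and 1 rise and 1 fall held with every array left out and in the 8-array fit. GR1, the cytosolic glutathione reductase, rose from 8.54 and 8.45 to 9.43 and 9.57 (2.01-fold, adjusted p = 0.000417). TAPX, the ascorbate peroxidase of thylakoids, fell from 8.70 and 9.04 to 7.96 and 7.90 (−0.94, adjusted p = 0.00172), while SAPX of the stroma rose by 0.44 and the organellar reductase GR by 0.51, both calls being lost with an array left out (adjusted p = 0.167 for SAPX without NaCl array 2 and 0.122 for GR without NaCl array 1).

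Single members of other protective groups rose too. MT1C, a metallothionein, a small cysteine-rich metal-binding protein, went from 10.52 and 10.46 to 12.17 and 12.07 (3.09-fold, adjusted p = 3.76e-05). WSD1, a wax ester synthase of the cuticle, went from 5.64 and 5.63 to 7.36 and 7.29 (3.23-fold, adjusted p = 2.65e-05). ALDH7B4, an aldehyde dehydrogenase that removes reactive aldehydes, went from 11.68 and 11.69 to 12.60 and 12.63 (1.90-fold, adjusted p = 0.000328). The other 7 members of its family were not called, so that 12.5% of the family rose, near the 12.2% of all probe sets.

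Defence genes rose in 3 of 4 measured cases (12.2% of all probe sets rose), and in 2 of 4 in the 8-array fit. PDF1.2b, a plant defensin, went from 6.88 and 7.09 to 9.17 and 8.87 (4.1-fold, adjusted p = 6.64e-05), and OSM34, an osmotin, from 6.34 and 6.31 to 8.17 and 8.28 (3.74-fold, adjusted p = 1.88e-05). PDF1.2 went from 6.00 and 5.71 to 7.36 and 7.10 (2.59-fold), a call that missed the limit in the 8-array fit (adjusted p = 0.0556). PDF1.4 fell by 0.48 on the log2 scale (adjusted p = 0.106 without NaCl array 1). PDF1.2 and PDF1.2b are near-identical copies, so their probe sets may read each other's transcripts. PDF1.2 is known as a joint target of jasmonate and ethylene. Of the jasmonate list OPCL1, an enzyme of jasmonate synthesis, fell by 0.54 (adjusted p = 0.0661 without NaCl array 2), and of the ethylene list EIN3 was not called (−0.12).

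Of the regulators measured, single members of several families changed. WRKY6, a factor of senescence and phosphate starvation, read 5.90 and 6.49 in control and 7.97 and 8.07 after NaCl (3.55-fold, adjusted p = 0.0005), with the control arrays farther apart than the NaCl arrays. AT4G28140, which the study annotates as the ERF factor ERF054, went from 7.33 and 7.5 to 9.45 and 9.41 (4.04-fold, adjusted p = 1.98e-05). BZIP60, which acts in the unfolded protein response of the endoplasmic reticulum, rose from 9.36 and 9.46 to 10.06 and 10.03 (1.55-fold, adjusted p = 0.00219). Against these, WRKY53 and WRKY22 fell by 0.40 and 0.48, the first call being lost without NaCl array 2 (adjusted p = 0.169) and the second without NaCl array 1 (adjusted p = 0.171). BZIP61 fell by 0.80, bZIP58 by 0.76 and bZIP44 by 0.66, of which BZIP61 and bZIP44 missed the limit in the 8-array fit (adjusted p = 0.088 and 0.0849). The family counts were 1 higher and 2 lower of 7 WRKY genes, 2 and 4 of 22 bZIP genes, and 2 and 2 of 7 bHLH genes. Over all probe sets 12.2% were higher and 13.7% lower, near the 9.09% and 18.2% of the bZIP genes, and the 2 other families have few members.

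Calcium sensors went both ways. The calmodulin-like CML42 fell from 7.99 and 7.78 to 6.75 and 6.97 (−1.02, adjusted p = 0.000937). CML23 rose from 7.19 and 7.05 to 8.24 and 7.96 (0.98) and CML37 from 6.09 and 6.03 to 6.99 and 7.03 (0.95), and both missed the limit in the 8-array fit (adjusted p = 0.17 and 0.334). Of 13 genes matched by a name pattern for U-box and F-box proteins 2 rose and 2 fell (15.4% each way, against 12.2% and 13.7% of all probe sets). The pattern matched no F-box gene. It took in the SKP1-like genes SK15, SK16, SK18 and SK19, which were not called, so the share among the U-box genes alone is higher. Beside PUB19, PUB43 rose by 0.91, which missed the limit in the 8-array fit (adjusted p = 0.135), and PUB23 and PUB22, a pair of ligases that dampen immune and drought responses, fell by 0.51 and 0.36, both calls being lost with an array left out (adjusted p = 0.0936 without NaCl array 2 and 0.227 without NaCl array 1).

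Auxin genes showed a similar mix. GH3.17, an enzyme that conjugates auxin to glutamate, rose from 6.11 and 5.88 to 7.22 and 7.36 (2.46-fold, adjusted p = 0.000255). WES1 (GH3.5) rose by 0.55 and GH3.9 fell by 0.48, each lost without NaCl array 2 (adjusted p = 0.0822 and 0.161). IAA29, an early auxin response repressor, fell from 8.45 and 8.14 to 7.47 and 7.56 (−0.78, adjusted p = 0.00355), and IAA31 by 0.51 (adjusted p = 0.0806 without NaCl array 2). The gibberellin receptor GID1A fell by 0.59, lost without NaCl array 2 (adjusted p = 0.0818) and in the 8-array fit (adjusted p = 0.536).

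Among transporters of sugars and nitrate, a few members rose strongly. SWEET2, a sugar carrier of the vacuole membrane in roots, went from 5.90 and 5.74 to 7.92 and 7.79 (4.1-fold, adjusted p = 2.36e-05). SWEET4 went from 7.68 and 7.63 to 8.85 and 8.97 (2.38-fold, adjusted p = 0.000121). SWEET16, of the vacuole membrane as well, fell from 6.32 and 6.58 to 5.53 and 5.35 (−1.01, adjusted p = 0.00115). Of 16 SWEET genes 3 rose and 6 fell (18.8% and 37.5%, against 12.2% and 13.7% of all probe sets), and 2 rises and 1 fall held with every array left out. SWEET11, which loads sucrose into the phloem, fell by 0.49 on the log2 scale (adjusted p = 0.0885 without NaCl array 1), whereas SAG29, a SWEET gene of senescing leaves, overlapped between groups (−0.03).

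Of 12 NPF and NRT2 genes, carriers of nitrate and other small molecules, 5 rose and 1 fell (41.7% and 8.33%, against 12.2% and 13.7% of all probe sets). NPF3.1 (AT1G68570) went from 7.63 and 7.73 to 9.13 and 9.12 (2.72-fold, adjusted p = 5.41e-05), NPF6.4 (AT3G21670) from 8.33 and 8.14 to 9.46 and 9.43 (2.31-fold, adjusted p = 0.000207), and NPF6.2 (AT2G26690) from 8.18 and 8.17 to 8.98 and 8.95 (1.73-fold, adjusted p = 0.000671). These 3 held with every array left out and in the 8-array fit. GTR1, a glucosinolate carrier, rose by 0.50 (adjusted p = 0.182 without NaCl array 1), and its partner GTR2 was not called (−0.35). NRT2.5, a high-affinity nitrate carrier, fell by 0.30 at a dim signal (adjusted p = 0.315 without NaCl array 1). At the vacuole membrane, the monosaccharide carrier TMT2 rose by 0.71, while TMT1 and TMT3 fell by 0.52 and 0.36. All 3 missed the limit in the 8-array fit (adjusted p = 0.0953, 0.261 and 0.287), and the calls of TMT1 and TMT3 were also lost without NaCl array 2 and NaCl array 1 (adjusted p = 0.134 and 0.295).

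The UDP-glycosyltransferases were the family with the most rises. Of 51 measured members 16 rose (31.4%, against 12.2% of all probe sets) and 3 fell (5.88%, against 13.7%), with a median of 0.02. The members were found by gene name, which left out AT2G31790 (UGT74C1, called lower at −0.41) and AT4G14090 (UGT75C1, not called at 0.27). Of the rises 12 held with every array left out, and 8 were called in the 8-array fit. Next to UGT73C7 and UGT76E12, UGT76E11 went from 6.25 and 6.23 to 8.55 and 8.44 (4.77-fold, adjusted p = 1.1e-05), though it missed the limit in the 8-array fit (adjusted p = 0.0574). UGT76B1, known to glucosylate isoleucic acid in defence, went from 5.34 and 5.0 to 7.23 on each NaCl array (4.18-fold, adjusted p = 5.27e-05). UGT87A2 went from 8.91 and 9.06 to 11.04 and 11.05 (2.06 on the log2 scale). Of the others that rose, UGT85A5 (1.28), UGT73B4 (1.06), UGT73B5 (1.05) and UGT76C2 (0.99), which glucosylates cytokinins, were the next in size, and the rest lay between 0.40 and 0.94. UGT73B4 missed the limit in the 8-array fit (adjusted p = 0.0812). UGT85A4 fell by 0.67, UGT76E2 by 0.48 and UGT74B1 by 0.44, the calls of UGT76E2 and UGT74B1 being lost without NaCl array 2 (adjusted p = 0.12 and 0.2). UGT76E11 and UGT76E12 are neighbours of similar sequence on chromosome 3, as are UGT73B4 and UGT73B5 on chromosome 2, so each pair may share signal.

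Of 28 genes matched by a name pattern for cytochromes P450, 5 rose and 4 fell (17.9% and 14.3%, near the 12.2% and 13.7% of all probe sets). The pattern also took in cyclophilins, which are not cytochromes P450. These were CYP59, 1 of the 5 rises (0.41), and CYP71, SQN and AT4G33060, which were not called. Of the calls only CYP78A9 passed a change of 1. CYP71B26 rose by 0.70 and CYP71B23 by 0.62, with neither called in the 8-array fit (adjusted p = 0.261 and 0.153). Of 11 tau glutathione transferases 2 rose and 2 fell (18.2% each way, against 12.2% and 13.7%). GSTU16 rose from 8.25 and 8.24 to 8.92 and 8.93 (0.68, adjusted p = 0.0714 in the 8-array fit), and GSTU27 fell by 0.60 (adjusted p = 0.0612 without NaCl array 1). GSTF4, of the phi class, fell from 5.74 and 5.78 to 4.38 and 4.46 (−1.34, adjusted p = 7.24e-05). Of 7 class III peroxidases 2 rose and 3 fell (28.6% and 42.9%, against 12.2% and 13.7%). In the 8-array fit 1 of the rises and 0 of the falls were called. PRX71 (AT5G64120), the largest change, went from 5.12 and 5.0 to 6.08 and 6.09 (2.03-fold, adjusted p = 0.000277).

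Over the 4 lists of nuclear genes for light reactions, Calvin cycle, photorespiration and chlorophyll synthesis, 11 of 20 measured members fell (55%, against 13.7% of all probe sets) and 0 rose (against 12.2%) in limma on the 4 arrays. In the 8-array fit 5 fell and 0 rose, and 4 falls held with every array left out. At an unadjusted p under 0.05, 2 were higher, both for chlorophyll synthesis (16.9% of all probe sets were higher at that limit). SBPASE, the sedoheptulose bisphosphatase of the Calvin cycle, went from 10.56 and 10.71 to 9.89 and 9.88 (−0.75, adjusted p = 0.00132), and PRK, the phosphoribulokinase, from 11.55 and 11.54 to 10.92 and 10.96 (−0.60, adjusted p = 0.00228). RCA, the Rubisco activase, was not called, at 12.71 and 12.73 in control and 12.70 and 12.69 after NaCl. In the photorespiration list, AT1G32470 fell from 10.53 and 10.82 to 9.78 and 9.76 (−0.90, adjusted p = 0.00149) and AT1G11860 from 10.83 and 10.89 to 10.16 and 10.19 (−0.69, adjusted p = 0.00132). SBPASE, PRK and these 2 held with every array left out and in the 8-array fit. AT2G35120, the third fall of the photorespiration list, had a log2 fold change of −0.44 and missed the limit in the 8-array fit (adjusted p = 0.251).

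The light reaction genes that fell did so by less than SBPASE, PRK, AT1G32470 and AT1G11860. LHCB4.2, an antenna protein of photosystem II, went from 12.97 and 12.92 to 12.40 and 12.38 (−0.55, adjusted p = 0.00334), and LHCB4.3 from 8.59 and 8.52 to 8.09 and 8.25 (−0.39), while LHCB4.1 was not called, with overlapping groups (0.02). PSAN of photosystem I and PSBY of photosystem II fell by 0.55 and 0.52. All 4 falls were lost with an array left out (adjusted p from 0.0576 for LHCB4.2 and 0.0907 for PSAN to 0.0946 for PSBY without NaCl array 2, and 0.257 for LHCB4.3 without NaCl array 1), and in the 8-array fit LHCB4.2 kept its call (adjusted p = 0.0426). For chlorophyll synthesis, CHLI2, of the magnesium chelatase, and CHLM, the next enzyme of the pathway, fell by 0.48 and 0.40. The call of CHLI2 was lost without NaCl array 2 (adjusted p = 0.156) and that of CHLM without NaCl array 1 (adjusted p = 0.211). NOL, a chlorophyll b reductase of leaf senescence, fell by 0.46 (adjusted p = 0.123 without NaCl array 2).

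Of 69 measured plastid-encoded genes 28 fell (40.6%, against 13.7% of all probe sets), 2 rose (2.9%) and 39 were not called. Their median was −0.31, with 63 negative log2 fold changes. The methods name an Affymetrix IVT Express labelling kit. Whether it reads plastid transcripts as it reads nuclear ones was not tested, so these values may not give plastid transcript levels. Of the falls 17 held with every array left out, and 11 were called in the 8-array fit. The cytochrome b6f subunits petG and petN went from 8.74 and 9.58 to 7.90 and 7.6 (−1.41, adjusted p = 0.00675) and from 8.14 and 8.48 to 7.21 and 7.11 (−1.15, adjusted p = 0.000811). The envelope protein gene cemA went from 10.20 and 10.37 to 9.11 and 9.21 (−1.12, adjusted p = 0.00029). For psbC, the photosystem II core antenna, the control arrays read 10.49 and 11.65, a gap nearly as wide as its fall to 9.73 and 9.70 (−1.36), and its call was lost without NaCl array 2 (adjusted p = 0.0719). Control array 2 exceeded control array 1 in 44 of the 69 genes, and the median change was −0.21 against control array 1 and −0.36 against control array 2. Genes with little change included psbA (−0.24) and rbcL (−0.13), neither of them called, and the 2 rises were atpH (0.59) and psbK (0.34), both lost without NaCl array 1 (adjusted p = 0.0547 and 0.286).

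Among 19 expansins, which loosen cell walls during growth, 3 rose and 4 fell (15.8% and 21.1%, near the 12.2% and 13.7% of all probe sets). EXPA8 read 6.77 and 7.62 in control and 5.79 and 5.94 after NaCl (−1.33, adjusted p = 0.00742), with the control arrays far apart and still above both NaCl arrays. EXPA21 went from 4.69 and 4.93 to 5.76 and 6.00 (1.07, adjusted p = 0.00103), and was not called in the 8-array fit (adjusted p = 0.238). Among 10 xyloglucan endotransglucosylases, which cut and rejoin wall polymers, XTH19 rose from 6.31 and 6.34 to 7.40 and 7.33 (1.04, adjusted p = 0.000209) and XTH29 by 0.83, while XTH16 fell from 7.11 and 7.18 to 6.02 and 5.90 (−1.18) and XTH33 by 0.61. These were the only calls of the family, 20% each way (against 12.2% and 13.7%). Of these the falls missed the limit in the 8-array fit (adjusted p = 0.144 and 0.332). The pectin methylesterase PME61 fell from 7.87 and 8.05 to 6.78 and 6.89 (−1.12, adjusted p = 0.06 in the 8-array fit), and CSLD2, of the cellulose synthase-like family of tip-growing cells, rose by 0.72 (adjusted p = 0.0332 in that fit).

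The glucosinolate list holds 30 genes that make or break down these sulfur-rich defence compounds of the cabbage family. Its 4 measured members, all of synthesis, fell (13.7% of all probe sets fell), and 2 of the falls were called in the 8-array fit. No breakdown gene of the list was measured. BCAT4, the aminotransferase that starts the methionine-derived branch, went from 11.07 on both control arrays to 9.93 and 9.86 (−1.17, adjusted p = 0.00012). AOP3, a side-chain enzyme, went from 6.86 and 6.53 to 5.67 and 5.52 (−1.10, adjusted p = 0.000992). UGT74B1 and AT2G31790 fell by 0.44 and 0.41, both lost without NaCl array 2 (adjusted p = 0.2 and 0.295). Of 22 beta-glucosidases 4 rose and 5 fell (18.2% and 22.7%, against 12.2% and 13.7%), with PYK10 rising by 1.32 (adjusted p = 7.79e-05) and BGLU19 falling from 5.45 and 5.25 to 4.27 and 4.16 (−1.13, adjusted p = 0.000353). Of 29 serine carboxypeptidase-like genes 1 rose and 6 fell (3.45% and 20.7%, against 12.2% and 13.7%). SCPL34 fell from 9.01 and 9.24 to 8.13 and 8.20 (−0.96, adjusted p = 0.000819) and SCPL45 from 8.35 and 8.26 to 7.42 and 7.41 (−0.89, adjusted p = 0.00047). In the 8-array fit 1 rise and 1 fall of the beta-glucosidases were called, and 0 rises and 2 falls of the serine carboxypeptidase-like genes.

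Several lists held no call. In limma on the 4 arrays, 0 of 7 flavonoid genes, 0 of 5 histone genes and 0 of the 2 heat shock genes passed the limit. None did in the 8-array fit either. Over all probe sets 25.9% were called in the first fit and 5.82% in the second, so lists this small say little. At an unadjusted p under 0.05 there were 2 of the flavonoid genes, 1 in each direction, 2 histone genes, both lower, and 0 heat shock genes. Over all probe sets 16.9% were higher and 21.0% lower at that limit. DFR and BAN, the reductases of anthocyanin and proanthocyanidin synthesis, had overlapping groups (0.15 and 0.04). The clock gene GI (−0.20), the replication gene PRL (−0.16) and the alpha-amylase AMY1 (0.37) were not called either, the first 2 being the single measured members of their lists and AMY1 1 of 2. For abscisic acid synthesis, abscisic acid signalling, ion transport and floral identity no listed gene is named alone by a probe set here, so these were not analysed.

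**Figure D4:**
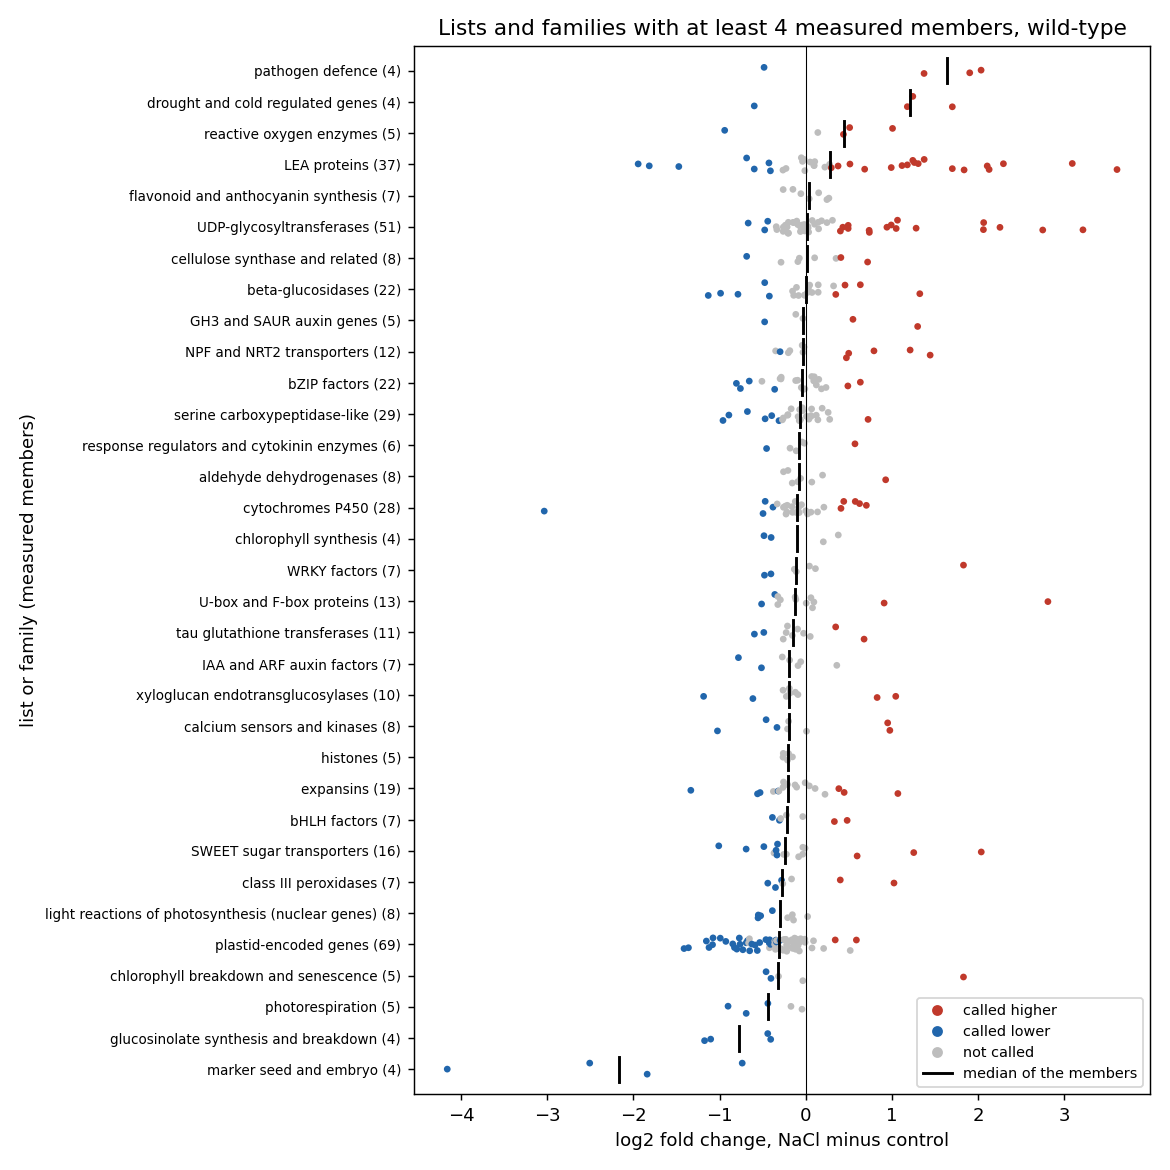
Log2 fold changes (NaCl minus control, horizontal axis) of the members of each list or family with at least 4 measured members, 1 point per gene (red called higher, blue called lower, grey not called; black bar, median of the members), ordered by median. The seed and embryo markers lie lowest (median −2.17) and pathogen defence highest (1.64), while the LEA and UDP-glycosyltransferase members spread to both sides of medians of 0.28 and 0.02.

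Whether the OE line answered alike was asked for the 30 genes of largest change. Their wild-type values chose them and so are no support here, but the OE log2 fold changes come from other samples. The OE calls are less separate, since they come from the 8-array fit, whose spread also takes in the wild-type arrays. Of the 15 rises, 14 were also called higher in OE (4.88% of all probe sets were), with a median OE log2 fold change of 2.83. LEA4-5 rose from a mean of 6.01 to 10.35 in OE and PUB19 from 7.56 to 10.38, while UGT73C7 read 4.77 and 5.02 and was not called (adjusted p = 0.696). Of the 15 falls, 12 rose in OE (against 4.88% of all probe sets), 2 fell (2.33%) and 1 was not called. Whether any array is mislabelled was not tested, since no named probe set reads the rice transgene, and each genotype difference here rests on the labels. CYP78A9 rose there from 5.75 to 7.96 and AT1G03890 from 7.26 to 9.94, whereas AT1G66850 fell from 8.0 to 5.04. The difference between the responses, tested over all 8 arrays, was called in 375 probe sets (1.65%), among them 13 of the 15 falls and 4 of the 15 rises, but since the genes were chosen on the wild-type part of that difference this count is a description.

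**Figure D5:**
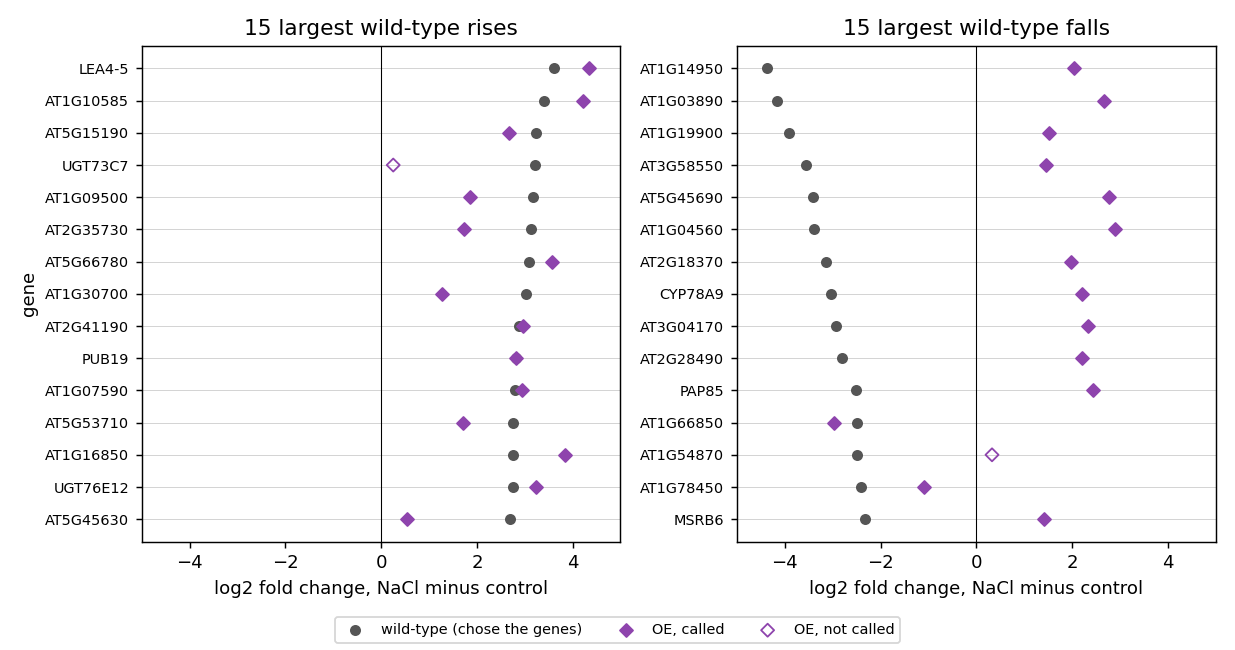
Log2 fold change (NaCl minus control, horizontal axis) of the 15 largest wild-type rises (left) and falls (right), in wild-type (grey circles, which chose the genes) and in OE (purple diamonds, filled where called). OE lies on the same side as wild-type in all 15 rises and on the other side in 13 of the 15 falls, 12 of them called.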

How the data were processed

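Total RNA of whole Arabidopsis seedlings was hybridised to ATH1 arrays, 2 for each of the 4 groups. The labels name Trizol and the methods RNeasy for extraction, and the methods describe extraction in triplicate. The deposited values are on a log2 scale, 1 per probe set and array, made by the authors from scanned images with Affymetrix Expression Console and R. The version and the summarization and background method were not given in the sources used here. No further normalization was applied, and precision is limited by how few arrays there are.

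Control probe sets (64) were removed before testing the remaining 22746. NaCl was compared with control in the 4 wild-type arrays with limma 3.58.1 in R 4.3.3 (moderated by eBayes, 2 residual degrees of freedom, prior 5.06), with Benjamini-Hochberg adjustment over all probe sets and a limit of 0.05. The difference between genotypes was an interaction term in a fit to 8 arrays. Leaving out an array leaves 1 in its group, which is then assumed to vary like the other group. The script was tested on simulated data.

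Probe sets were named from GEO's platform annotation and the TAIR10.1 gene table. Of those naming 1 gene 13436 matched, and of 147 genes with more than 1 probe set the brightest was taken. Named genes were the 15 largest called rises and falls, up to 4 of each of 31 lists and 38 families by size of change, and marker genes. Other members of a list, chosen after their values were seen, are named where they complete its account. Patterns for mitochondrial, cytosolic ribosomal and photosystem families were dropped once the names were seen, since they matched no or mostly plastid genes, and plastid genes were taken by their chromosome. The members and lists were chosen with earlier results of these data known. Other settings tried were the 8-array spread, intensity trend, robust and unmoderated fits, quantile normalization, median centring, filters on dim probe sets, array weights and a replicate block. Deviations of same-numbered arrays from their group means had a correlation of 0.0151 over probe sets.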

Additional observations from a re-analysis of the deposited data

Results flagged for a closer look

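The NaCl response of 17 of the 30 genes with the largest wild-type change differed between OE and wild-type, by the interaction term of limma over 8 arrays, with adjusted p from 5.16e-05 to 0.0474. Since the genes were chosen on their wild-type values, which enter this difference, they are given as values only.

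Among the rises the response was smaller in OE for UGT73C7 (OE minus wild-type −2.96 on the log2 scale, adjusted p = 0.0379), AT5G45630 (−2.15, adjusted p = 0.00176), AT1G30700 (−1.77, adjusted p = 0.0474) and AT2G35730 (−1.41, adjusted p = 0.0171). The difference was called in every fit with an array left out for AT5G45630. It was lost in 6 of the 8 such fits for UGT73C7 (adjusted p up to 0.205, without wild-type control array 1), in 5 for AT1G30700 (up to 0.258, without wild-type NaCl array 1) and in 4 for AT2G35730 (up to 0.16, without wild-type NaCl array 1).

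Among the falls the difference was positive in all 13 genes, a sign that their choice on negative wild-type changes favours. It was 6.84 for AT1G03890, 6.42 for AT1G14950, 6.28 for AT1G04560, 6.20 for AT5G45690, 5.45 for AT1G19900, 5.26 for AT3G04170, 5.24 for CYP78A9, 5.11 for AT2G18370, 5.01 for both AT3G58550 and AT2G28490, 4.95 for PAP85, 3.75 for MSRB6 and 2.82 for AT1G54870. In OE the first 12 of these were called higher after NaCl, and AT1G54870 was not called (0.33). The seed and embryo markers AT1G03890 and PAP85 are among them, and the 4 measured markers of that list, which fell in wild-type, were higher after NaCl in OE by 1.5 (OLEO3), 1.67 (AT3G01570), 2.45 (PAP85) and 2.68 (AT1G03890). Their part in the differences was not tested. Nor was it tested whether the arrays carry the right labels.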

How the results depend on the processing

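Against 5899 wild-type calls (2783 higher, 3116 lower), the 8-array fit gave 1324 (742 and 582), the unmoderated fit 53 (30 and 23), a log2 fold change of at least 1 besides the adjusted p 844 (549 and 295), and a log2 fold change over 2 with the methods' unadjusted P limit of 0.05, or with the stricter 0.001 of a supplementary table, 148 (103 and 45). With an array left out the counts ran from 2299 (without NaCl array 1) to 8826 (without control array 1), from 1249 to 4079 for higher and from 1043 to 4747 for lower. They were 8260 without control array 2 and 2301 without NaCl array 2. The other settings gave 4472 to 6550. Of the calls 47.2% were higher, against 56% in the 8-array fit, 56.6% unmoderated and 41.1% with median centring. The genotype difference gave 375 calls, and 122 (without wild-type NaCl array 2) to 2294 (without OE NaCl array 1) with an array left out.

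Same-numbered arrays share only a number, and the replicate block gave 6550 calls in wild-type and 274 for the genotype difference. Of 148 named calls the block changed 0, the 8-array fit lost 68, the unmoderated fit 143, and leaving out NaCl array 1 or 2 lost 46 or 48, control array 1 or 2 lost 1 each. None reversed in any of these fits. Without either NaCl array the spread came from the control arrays alone, which differed more than the NaCl arrays (SD 0.21 against 0.12). A call lost without a named NaCl array therefore need not hang on that array. What part the spread had in each loss was not tested. With 2 arrays a group the unmoderated fit has 2 residual degrees of freedom. Dim probe sets yielded few calls (5.12% at a mean signal below 4.33).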

Other observations

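Probe sets with no gene name here were not poorer in change than the named ones. Of 8730 such probe sets 1308 were higher and 1349 lower (30.4% called, against 23.1% of those naming 1 gene), and 276 and 131 of these had a log2 fold change of at least 1. By chromosome, the share of calls lay between 20.9% and 24.7% on the nuclear chromosomes and was 43.5% for the plastid.

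Among 8092 pairs of measured genes with at most 5000 bases between them, the log2 fold changes of neighbours had a Pearson's r of 0.080 and a Spearman's rho of 0.051 across pairs, which share arrays and are no independent replicates. In 22 pairs both genes were called with a change of at least 1. Of these 14 rose together, 4 fell together and 4 went opposite ways. Over all probe sets 3.71% passed this limit, 2.41% higher and 1.3% lower. Some of the pairs share a gene. How many such pairs genes that are not neighbours would give was not tested. UGT76E12 and UGT76E11 (2.75 and 2.25) and M17 and M10 (2.13 and 1.3) rose side by side, as did the subtilase genes SBT3.5 and SBT3.3 (2.04 and 1.44) with AT1G32950 between them (1.09), and AER (1.59), an alkenal reductase, with AT5G16960 (1.36) and AT5G16980 (1.86) on either side. AT2G18360 and AT2G18370 fell together (−2.20 and −3.14). AT3G58550 fell by 3.55 next to AT3G58540, which rose (1.15), and WRKY6 rose (1.83) next to AT1G62290, which fell (−1.21). Neighbours of similar sequence may share probe signal, which was not tested.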
